A study of Mus musculus with 4 samples.

Results

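The cells described here are 95 of 8677 kept cells that resemble mature, migratory dendritic cells, chosen by their own transcript counts. A cell was a member if it held at least 1 unique molecular identifier (UMI, 1 counted transcript molecule) of Ccr7 and at least 2 of Fscn1. It also had to hold at most 1 UMI of Cd3d, Cd3e and Cd3g together, at most 10 of C1qa, C1qb and C1qc together, and fewer than 10 of Mlana and Dct together, which keeps out T cells, macrophages and melanoma cells. The 2 control libraries (S3, S4) came from control B16-F10 tumours and the 2 Adar1-null libraries (S1, S2) from Adar1-null B16-F10 tumours. B16-F10 is a mouse melanoma line, and every tumour was grown from cells implanted with matrigel in C57BL/6 mice and taken on day 14. The labels place the Adar1 null genotype on the tumour and name no allele of the hosts, so the members are host cells taken from tumours of either kind. The tumours were digested for 10 min at 37 °C with collagenase P and DNase I, leukocytes were enriched on an Optiprep gradient and selected on CD45 beads, and single cells were captured with the 10x 3′ v2 chemistry. The labels do not say whether the control line carries a control edit, whether either line is a single clone, or whether the libraries of 1 group are separate mice. The p-values below therefore measure only the spread between these libraries.

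Dendritic cells sample antigen in tissues and present it to T cells. On maturation they raise the chemokine receptor Ccr7, which guides them along lymphatic vessels to lymph nodes, and the actin-bundling protein fascin (Fscn1). They also switch on co-stimulatory molecules, NF-kB factors and T cell-attracting chemokines, and reduce the uptake and new loading of antigen. In tumours such cells are also known for ligands that restrain T cells, such as PD-L1 (Cd274) and Cd200.

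Of the 6 markers, Ccr7 and Fscn1 chose the cells and the other 4 did not. Ccl22 attracts regulatory T cells, Il4i1 is a secreted amino acid oxidase, Relb is a subunit of the alternative NF-kB pathway and Cacnb3 is a calcium channel subunit. At least 3 of these 4 were detected in 90 of the 95 members, and all 4 in 57. Most of these 4 markers of mature migratory dendritic cells, though not always all of them, were thus detected together in nearly all members. This is a description with no test, since the cells were chosen by their own counts. The promoters of 3 of the markers are shown because NF-kB factors are among the genes that set the members apart. The windows are the 250 bases before the start in RefSeq (GRCm38.p6, plus strand), and capitals mark the kappaB letters, searched on either strand as GGGA, any 4 bases and CC. They lie at chr8:94745434-94745683 for Ccl22, chr7:44836038-44836287 for Il4i1 and chr15:98634517-98634766 for Cacnb3.
Ccl22: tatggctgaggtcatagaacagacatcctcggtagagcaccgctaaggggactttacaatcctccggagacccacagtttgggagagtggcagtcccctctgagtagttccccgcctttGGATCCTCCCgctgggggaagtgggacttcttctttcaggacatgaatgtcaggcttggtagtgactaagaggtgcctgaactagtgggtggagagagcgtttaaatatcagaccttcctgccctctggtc
Il4i1: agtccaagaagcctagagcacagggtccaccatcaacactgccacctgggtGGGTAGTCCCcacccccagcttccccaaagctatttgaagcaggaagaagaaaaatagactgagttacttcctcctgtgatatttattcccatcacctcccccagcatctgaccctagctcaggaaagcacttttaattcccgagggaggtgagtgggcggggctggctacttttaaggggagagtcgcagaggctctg
Cacnb3: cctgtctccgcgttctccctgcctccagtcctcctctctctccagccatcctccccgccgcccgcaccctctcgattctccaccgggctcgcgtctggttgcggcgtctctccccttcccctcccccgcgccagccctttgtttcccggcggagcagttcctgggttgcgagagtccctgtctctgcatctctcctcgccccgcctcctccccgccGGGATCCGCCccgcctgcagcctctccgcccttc
Each window holds 1 match, on the minus strand 131 and 199 bases before the start in Ccl22 and Il4i1 and on the plus strand 34 bases before it in Cacnb3. The Fscn1 window and a second Cacnb3 window hold none, and Ccr7 and Relb are not in the promoter table. Over all 32817 promoters of this length 17.6% hold a match, so these letters are common and are given as a description only.

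The members were deep enough to measure. They held 259794, 135965, 154536 and 95394 UMIs in S1 to S4, with a median of 5939 UMIs and 1821 genes per cell, and no barcode sequence of a member occurred in another library. Scrublet marked 1 member, in S3. Near the thresholds, 5 members held exactly 2 Fscn1 UMIs and all 5 had 3 or 4 of the other markers, while 5 cells just outside held 1, of which 2 had them. Of 32 cells with at least 2 Fscn1 UMIs but no Ccr7, none had 3 of the 4. A further 37 cells with both genes were kept out by the limits on other cell types, 30 of them by Cd3 UMIs, and 31 of the 37 carried at least 3 of the 4 markers.

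Markers of other cell types were low in the members with a few exceptions. For the T cell, macrophage and melanoma lists this is partly set by the rule, which limited Cd3, C1q, Mlana and Dct UMIs. The T cell list summed to between 51.5 and 61.6 CPM per library, where CPM is a gene's UMIs scaled to a common total and in these 3′ counts compares cells, not genes, with Cd3e and Cd4 at 0, and the melanoma list to between 73.5 and 97.1 CPM. The macrophage list, led by Apoe, reached 404, 257, 595 and 881 CPM in S1 to S4 against 5710.2 to 18081 CPM over all cells. The monocyte list, led by Plac8, was at 377, 463, 1411 and 356 CPM, highest in S3. A single member in S2 held 121 UMIs of the 7 endothelial markers, where the next member held 5, and it had 1 Ccr7 UMI and no Relb, Ccl22 or Cacnb3. A single member in S3 held all 14 Cd209a UMIs found in members, 257 Ccl17 UMIs and 460 H2-Ab1 UMIs. Unlike the S2 cell it carried all 6 markers, with 17 Ccr7, 3 Fscn1, 51 Ccl22, 9 Il4i1, 1 Relb and 1 Cacnb3 UMIs. In S4, 1 member held 23 UMIs of the neutrophil list. Leaving out the S2 and the S3 cell was a choice made after seeing the data.

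Adar, the gene targeted in the tumour cells, was at 15.4, 14.7, 25.9 and 21 CPM in the members of S1 to S4 and was too low to be tested. These cells belong to the host, and 3′ tags need not cover the edited part, so this level checks nothing about the tumours.

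The members made up 2.03% (40 of 1972) of S1, 0.971% (19 of 1957) of S2, 1.07% (21 of 1962) of S3 and 0.538% (15 of 2786) of S4. Exact 95% binomial intervals, for counting error alone, ran from 1.45 to 2.75%, 0.586 to 1.51%, 0.664 to 1.63% and 0.302 to 0.886%. S1 stood above the others, and the groups overlapped because S2 lay below S3. The mean was 1.5% ± 0.748 (SD, n = 2) in Adar1-null and 0.804% ± 0.376 (SD, n = 2) in control libraries, a log2 ratio of 0.90, with p = 0.667 in an exact two-sided permutation test that cannot go below 0.333. edgeR's quasi-likelihood test of cell numbers gave a log2 change of 0.95 with a Benjamini-Hochberg adjusted p of 0.0844, and without S1 the change was 0.32 at an adjusted p of 0.744. Of the dendritic cells alone (members and both gates below), members were 39.6 and 24.4% in Adar1-null and 21.6 and 16.7% in control libraries. Here the groups did not overlap, at the smallest p the exact permutation test allows, 0.333. The binomial intervals of S2 (15.3 to 35.4%) and S3 (13.9 to 31.2%) did overlap. edgeR's test on these cells gave a log2 change of 0.77 (adjusted p = 0.103). The cDC1 gate described below held 20, 20, 30 and 36 cells in S1 to S4, so the shares do not follow from the members alone.

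**Figure D1:**
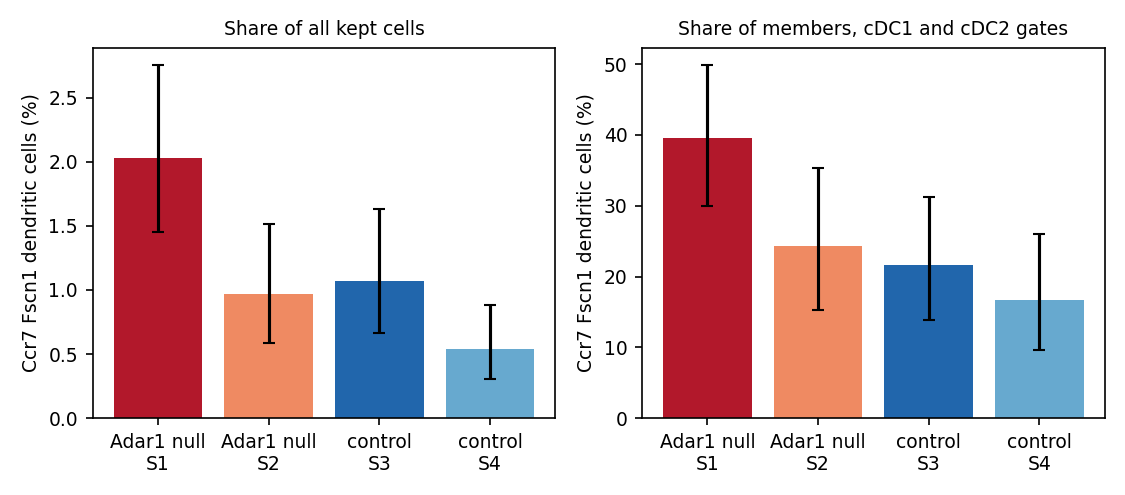
Members as a percentage of all kept cells (left) and of the 3 dendritic cell groups (right) in each library, with exact 95% binomial intervals as error bars. On the left S1 is highest at 2.03% and S2 and S3 are close to each other, and on the right both Adar1-null libraries lie above both controls.

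For comparison, cells with at least 2 UMIs of Xcr1 and Clec9a formed a gate of type 1 conventional dendritic cells (cDC1, 106 cells) and cells with at least 2 UMIs of Cd209a one of type 2 (cDC2, 165 cells). Xcr1 and Clec9a mark the dendritic cells best known for cross-presentation to CD8 T cells, and Cd209a marks a cDC2 population. The members resembled neither gate fully. Irf8 and Batf3, factors required for cDC1, were at 1928 and 348 CPM on average in members, 2671 and 312 CPM in the cDC1 gate, and 325 and 108 CPM in the cDC2 gate. Tmem176a and Tmem176b, on the cDC2 list, were at 821 and 804 CPM in members, 320.1 and 413 CPM in the cDC2 gate, and 6.90 and 12.8 CPM in the cDC1 gate. Of the members, 11 held UMIs of the cDC1 list only, 28 of the cDC2 list only, 8 of both and 48 of neither, at equal depth and without Batf3, Tmem176a and Tmem176b. In the same order the counts were 47, 1, 58 and 0 in the cDC1 gate and 0, 41, 124 and 0 in the cDC2 gate. The lists include Xcr1, Clec9a and Cd209a, which define the gates, so the absence of gated cells with neither was largely set in advance. Many gated cells thus held UMIs of both lists, and these counts do not give the origin of a member.

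Against both gates, 198 of 3213 genes (6.16%) with at least 50 CPM in a dendritic group were at least 2-fold higher in members in all 4 libraries, and 143 (4.45%) were at least 2-fold lower. These are descriptions, since the cells were chosen by expression. By comparison the share of higher genes was 6 of 13 among maturation and co-stimulation genes, 6 of 18 in the NF-kB list, 6 of 15 among checkpoint ligands and regulators, 6 of 25 for migration and cytoskeleton (Ccr7 and Fscn1, which chose the cells, among them), and 6 of 19 among dendritic cell transcription factors. None of 13 MHC class II genes and none of 39 type I interferon genes was higher, and a share of 6.16% gives few in lists of this size. The lists were chosen with earlier results of these data known.

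Of the 20 genes with the largest ratio of members over the highest of 4 gates (cDC1, cDC2, macrophage and T), 4 were led by the S2 cell with endothelial markers. These were Gpihbp1, Plvap, Aqp1 and Ubd, and the first 3 had no UMI in members of the other libraries. The rest were spread over the libraries, apart from Apol7c, which had no UMI in S4. Nudt17, a Nudix hydrolase family gene, was at 316, 206, 201 and 199 CPM in members and at most 2.61 CPM on average in a gate. Ramp3, a partner of calcitonin-family receptors, was at 855, 794, 751 and 639 CPM against 35.5 CPM in the cDC2 gate. Mreg, the melanoregulin gene, was at 131, 154, 162 and 105 CPM and had no UMI in either dendritic gate. In the other direction, the low genes against the cDC2 gate included the lectins Cd209d, Clec10a and Cd209a. Cd209a defines that gate, so its place here was set in advance. Also among the low genes were Col1a1, Col1a2 and Col3a1, fibroblast collagens that were at 206, 213 and 221 CPM in the cDC2 gate.

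Migration and cytoskeleton genes were among the higher ones. Ccr7 was at 2922, 2868, 2795 and 1908 CPM in the members of S1 to S4 and at no more than 118 CPM in any library of either gate. Fscn1 was at 2802, 2302, 2278 and 2191 CPM, and both genes chose the cells. Marcksl1, an actin-binding protein kinase C substrate, was at 2002, 1596, 1631 and 1981 CPM in members, with all 4 libraries far above the 65.8 to 306 CPM of the gates. Itgb2 and Itgax, the chains of the integrin CD11c/CD18, were at least 2-fold lower in every library. Itgax, a usual marker of dendritic cells, averaged 7.22 CPM in members, 43.3 CPM in the cDC1 gate and 54.4 CPM in the cDC2 gate.

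Of the chemokine list, 3 of 14 genes were higher (Ccl5, Ccl22 and Cxcl16), and of the cytokine list 2 of 8 (Il12b and Il15ra). Ccl5, which attracts T cells, was at 11247, 9627, 13796 and 9634 CPM in the members of S1 to S4. The gates held 23.6 to 373 CPM and the T gate, whose cells are known producers of Ccl5, averaged 3972 CPM. Ccl22 was at 1871, 809, 848 and 2778 CPM, high in S1 and S4 and lower in S2 and S3, so that the groups overlapped. Cxcl16, the ligand of Cxcr6, was at 1147, 1074, 1462 and 1279 CPM. Il12b, the p40 subunit of interleukins 12 and 23, was at 242, 184, 453 and 461 CPM and had no UMI in the cDC2 gate. Il15ra, which presents interleukin 15 to lymphocytes, averaged 163 CPM in members and 14.7 CPM in the cDC2 gate.

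Ligands that stimulate and ligands that restrain T cells were higher side by side. Cd40, the receptor for help from CD4 T cells, was at 281, 235, 336 and 335 CPM, and Cd80, a ligand of CD28 and CTLA-4, at 77, 66.2, 58.2 and 83.9 CPM. Cd70, the ligand of CD27, averaged 102 CPM in members, with no UMI in the cDC1 gate. Cd274 was at 162, 287, 226 and 168 CPM and Pdcd1lg2, which encodes PD-L2, at 169, 177, 220.0 and 94.3 CPM. Cd200, which signals to myeloid cells through its receptor, was at 289, 331, 265 and 283 CPM against at most 9.45 CPM in a gate. Socs2, a feedback inhibitor of cytokine signalling, averaged 668 CPM in members and 13.7 CPM in the cDC2 gate. Vsir, which encodes the checkpoint molecule VISTA, went the other way, at 14.9 CPM in members and 87.5 CPM in the cDC2 gate.

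**Figure D2:**
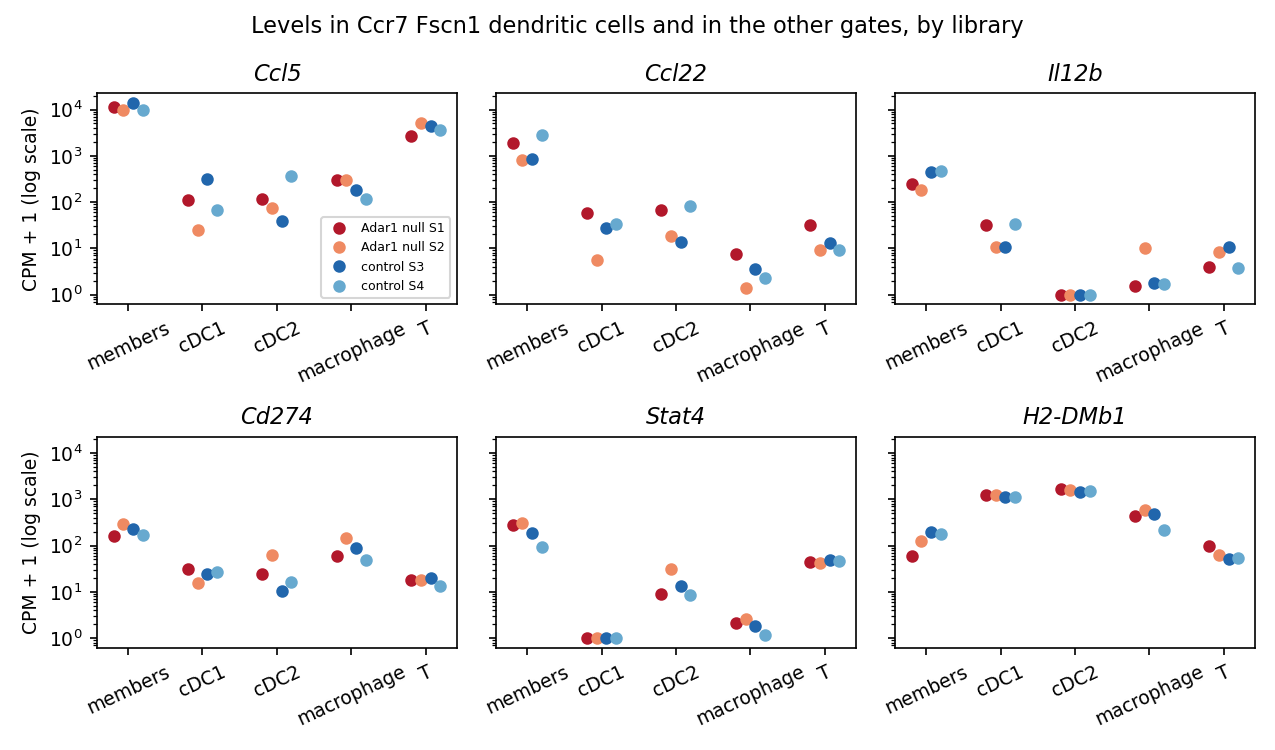
CPM plus 1 (log axis) of 6 genes in the members and in 4 gates, 1 point per library. Ccl5, Ccl22, Il12b, Cd274 and Stat4 are higher in members than in either dendritic gate in all 4 libraries, and H2-DMb1 is lower.

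Among signalling genes, 6 of 18 NF-kB genes and 4 of 13 survival genes were higher, and the former were Relb, Nfkb2, Nfkbib, Map3k14, Traf1 and Birc2. Relb was at 654, 706, 802 and 566 CPM in members and at most 84.2 CPM in a gate library. Nfkb2, the partner of Relb, Map3k14, the kinase that activates that pathway, and Traf1 averaged 185, 191 and 1027 CPM in members and 50.1, 34.8 and 218 CPM in the cDC2 gate. Birc2, an inhibitor of apoptosis, averaged 265 CPM in members and 24.1 CPM in the cDC2 gate, and Bcl2a1b, a Bcl-2 family survival gene with near-identical copies between which reads may be split, 1692 and 260.2 CPM. Stat4, which carries interleukin 12 signals, was at 281, 302, 188 and 94.3 CPM and had no UMI in the cDC1 gate. Bcl11a, a factor of dendritic cell development, had no UMI in any member.

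Among lower genes were H2-DMa and H2-DMb1, 2 of 13 MHC class II genes, and Fos, Egr1 and Nr4a1, 3 of 18 immediate-early genes. Over all genes 143 of 3213 (4.45%) were lower. None of 22 MHC class I genes was lower, and a share that small gives few in a list of this size. H2-DMb1, a subunit of the peptide exchanger of MHC class II, was at 57.7, 125, 194 and 178 CPM in members and at 1103 to 1709 CPM in the gate libraries. H2-Ab1, an MHC class II chain, averaged 3697 CPM in members and 12181 and 10796 CPM in the cDC1 and cDC2 gates, but was not 2-fold lower in S3. Fos, Egr1 and Nr4a1, immediate-early genes that tissue digestion can raise, averaged 246, 12.4 and 29.0 CPM in members and 1397, 193 and 230.2 CPM in the cDC2 gate. All gates came from the same digestions.

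The members were not uniform among themselves. At an equal depth of 3900 UMIs per cell, Ccl5 ranged from 0 to 219 UMIs, and Ccl22, Ccl17 and Il12b were each absent from some members. Ccl22 was detected in 69 members, Il12b in 31 and Ccl17 in 29, with Il12b and Ccl17 together in 12. The 33 members with at least 10 H2-Ab1 UMIs had medians of 17 Ccl5, 5 Fscn1 and 11 Ccr7 UMIs, and the 62 others had medians of 50, 13 and 10. Members with fewer H2-Ab1 UMIs thus had higher medians of Ccl5 and Fscn1, the Ccr7 medians differed by 1 UMI, and both kinds occurred in every library (12, 7, 8 and 6 high cells in S1 to S4). The split was made after seeing the counts and carries no test.

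**Figure D3:**
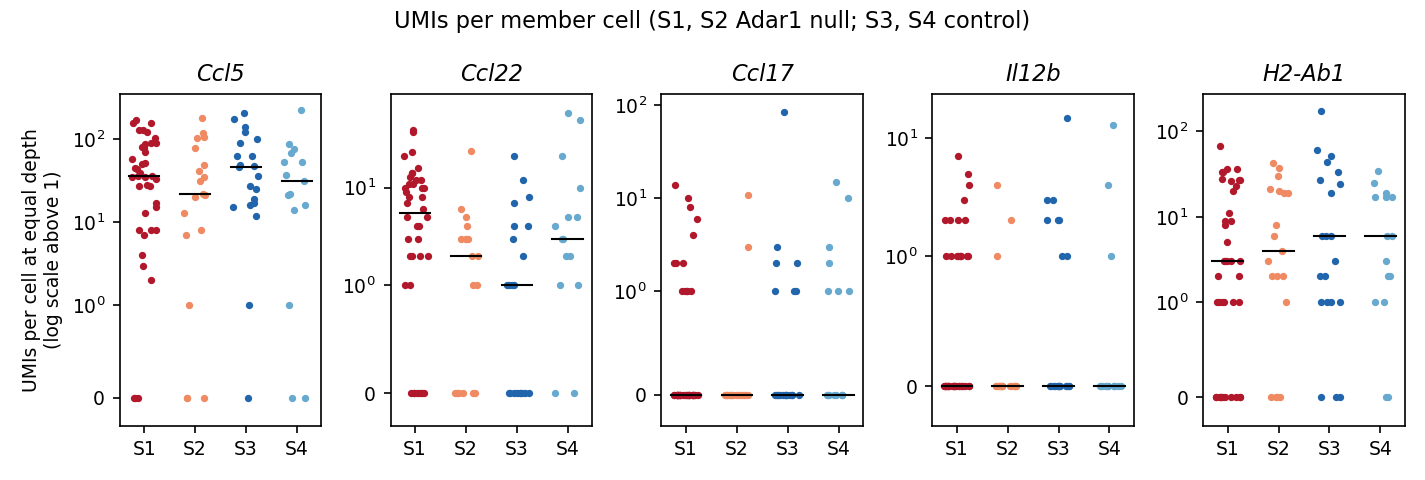
UMIs per member at an equal depth of 3900 UMIs (log scale above 1, 0 shown), with a line at each library's median. Ccl5 medians lie between 22 and 46 UMIs, Ccl17 and Il12b medians are 0 in all 4 libraries, and 1 cell of S3 holds 84 Ccl17 UMIs.

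The next comparison asked whether loss of Adar1 in the tumour cells went with a different expression state of the members. Of 1881 genes tested over 2 libraries a group with edgeR's quasi-likelihood test, none (0%) was higher and 1 (0.0532%), Ccl17, was lower in Adar1-null libraries after Benjamini-Hochberg adjustment. At an unadjusted p under 0.05 there were 44 genes higher and 73 lower, and DESeq2 also called only Ccl17. Ccl17, a ligand of CCR4 (chr8:94810453-94812036 in the GENCODE annotation of GRCm38, next to Ccl22 at chr8:94745590-94751699), was at 293, 316, 1779.5 and 765 CPM. Its log2 change was -2.13 (SE 0.34, adjusted p = 0.0199 by edgeR, lower in 2 of 2 Adar1-null libraries). With all libraries in the fit, that call rested on the 1 S3 cell with Cd209a, which held 55.0% of all Ccl17 UMIs in members. Without it and the endothelial-marker cell S3 fell to 126 CPM, and the change was -0.43 (adjusted p = 0.999 by edgeR). Without the whole S3 library, which leaves S4 as the only control, the log2 change was -1.42. Ccl22 did not change detectably, with a log2 change of -0.44 (SE 0.89).

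Without both of those cells, 5 of 1675 genes (0.299%) were lower and none was higher in edgeR's test, and these were Irf7, S100a4, Zmynd15, Ccl7 and Apoe. Irf7, the interferon regulatory factor that amplifies type I interferon, was at 108, 168, 377 and 314 CPM, a log2 change of -1.45 (SE 0.32, adjusted p = 0.00901). S100a4, a calcium-binding protein of motile cells, was at 497, 335, 1109.5 and 786 CPM (log2 change -1.19, SE 0.26, adjusted p = 0.00901). Zmynd15, a zinc finger gene that was among the leading genes of the members, was at 208, 126, 572 and 304 CPM (log2 change -1.38, SE 0.30, adjusted p = 0.00901). For these 3 genes both Adar1-null libraries lay below both controls. With all members none of the 5 genes passed edgeR's test. The log2 changes were then -1.18 for Irf7 (adjusted p = 0.216), -1.28 for S100a4 and -1.39 for Zmynd15 (adjusted p = 0.171 each). Without the Cd209a cell alone, the adjusted p by edgeR was 0.258 for each of the 3. Without the endothelial-marker cell alone, it was 0.0193 for Irf7 and 0.0176 for S100a4 and Zmynd15.

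Ccl7 and Apoe are abundant in macrophages, at 3278 and 8082 CPM in the macrophage gate. In members without both cells Ccl7 was at 57.7, 50.3, 307 and 94.3 CPM and Apoe at 77, 41.9, 167 and 482 CPM. Of all Ccl7 UMIs in members, 50.7% came from 1 cell in S3. Apoe was also highest in S4 and lowest in S2 in the cDC1 gate (81, 14.2, 75.3 and 469 CPM). The macrophage list in members had the same order at its ends, but Apoe is part of that list and leads it, so the list is not separate from Apoe. The monocyte list without both cells was at 377, 519.6, 1403 and 356 CPM. The part of macrophage and monocyte RNA in these results was not tested.

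The genes with the smallest p whose groups did not overlap did not pass in the full set of members and are given as values. Over all genes, 18.9% were higher in both Adar1-null libraries than in both controls, and 14.1% lower. On the higher side, the cytotoxic protease inhibitor Serpinb9 was at 643, 500.1, 278 and 304 CPM, and the survival gene Bcl2a1d at 828, 728, 453 and 356 CPM. Crem, a cyclic AMP-responsive factor, was at 266, 213, 116 and 83.9 CPM. Serpinb1a, H2-Q4, Hmgn2, Odc1 and Rpl23a were also apart, with log2 changes of 2.15, 1.98, 3.29, 1.90 and 1.44 from low counts. Without the endothelial-marker cell, which held 30.1% of its UMIs, Serpinb1a had a log2 change of 1.5. Both Bcl2a1d and H2-Q4 have near-identical copies, so reads may be split between them. On the lower side, Ccl9 was at 30.8, 29.4, 330.0 and 94.3 CPM (log2 change -2.90, SE 0.54, adjusted p = 0.0563 by edgeR). A single S3 cell held 41.7% of its UMIs, and the change was -1.96 without both cells and -1.70 without S3. Ms4a6c, Alox5ap and S100a10, genes that are more abundant in the cDC2 gate, had log2 changes of -2.11, -1.92 and -1.12. Il12b, at 242, 184, 453 and 461 CPM, had a log2 change of -1.11 (SE 0.30, adjusted p = 0.171 by edgeR). At equal depth it was detected in 17 of 40, 3 of 19, 8 of 21 and 3 of 15 members of S1 to S4, and single cells of S3 and S4 held 15 and 13 of its UMIs.

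**Figure D4:**
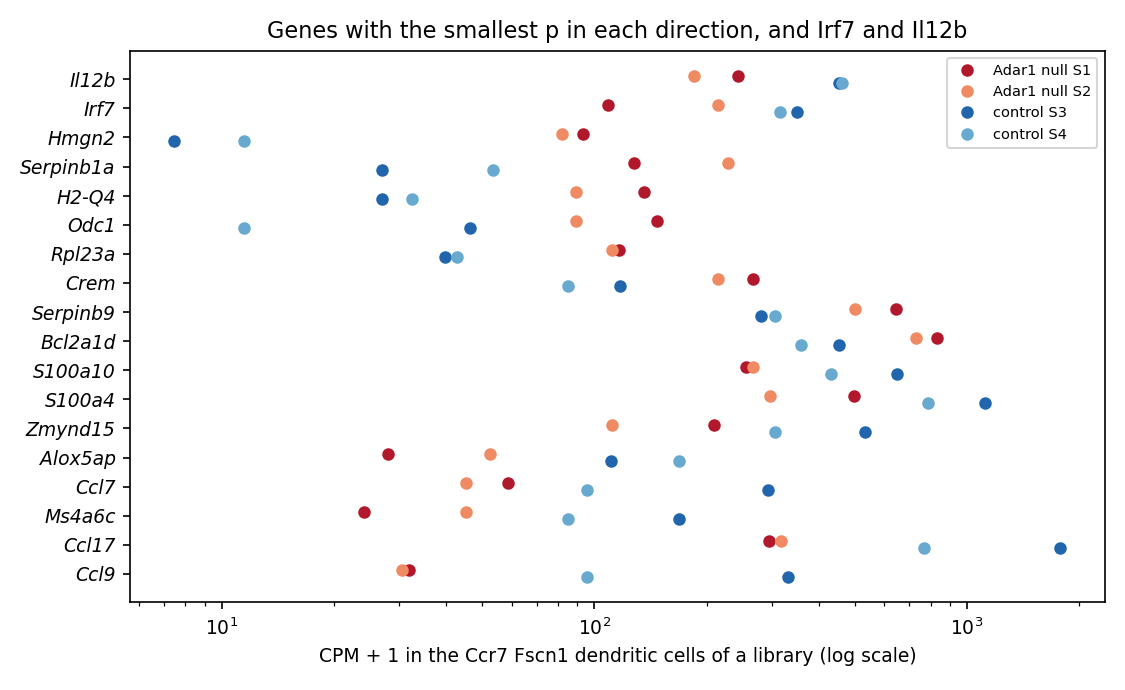
CPM plus 1 (log axis) in the members of each library for the genes with the smallest p in each direction whose groups did not overlap, with Irf7 and Il12b. Of these genes Ccl17 alone passed the adjusted threshold with all members, and its highest value, 1779.5 CPM in S3, comes mostly from 1 cell.

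By list, the median log2 change of all 1881 genes was -0.0039, and 932 were positive. Of 13 tested chemokines 2 were positive (median -0.70, from -1.05 without S1 to -0.34 without S2). In both Adar1-null libraries 7 of them were lower than in both controls and 0 higher. Over all genes these counts were 265 (14.1%) lower and 355 (18.9%) higher. Lower and higher, they were 4 and 1 of 11 MHC class II genes and 1 and 7 of 21 MHC class I genes. They were 2 and 5 of 13 maturation genes and 5 and 4 of 13 dendritic cell transcription factors. Of 11 MHC class II genes 2 were positive (median -0.51, or -0.24 without both cells and -0.046 without S3). In that list H2-Ab1 was at 2729, 2765, 6619.8 and 2673 CPM, and at 3929 CPM in S3 without both cells, where its log2 change went from -0.81 to -0.26. Of 21 MHC class I genes 12 were positive (median 0.14, or -0.088 without S2) and of 13 maturation genes 6 (median -0.13, or 0.17 without S2). In that last list Cd86, a ligand of CD28, was at 512, 574, 278 and 388 CPM (log2 change 0.67, SE 0.28, adjusted p = 0.667 by edgeR), and Cd40 had a log2 change of -0.41 (SE 0.30). Cd274 had one of 0.06 (SE 0.35). Apart from Ccl17 no gene of any list passed the test in the full set.

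Interferon-stimulated genes were compared with those of the other dendritic gates, with no test of the list as a whole. Of 16 type I interferon-stimulated genes tested in members 5 were positive (median -0.19, from -0.84 without S2 to 0.43 without S3). In the cDC2 gate 40 of 40 were positive (median 0.74) and in the cDC1 gate 18 of 24 (median 0.13). Over all genes tested, 932 of 1881 were positive in members, 1596 of 3305 in the cDC2 gate and 1520 of 3096 in the cDC1 gate. Both Adar1-null libraries lay above both controls in the cDC2 gate for 26 of the 40, against 729 of all 3305 genes there. For the 14 genes of the interferon list tested in all 3 groups of cells, the medians were -0.13 in members, 0.54 in the cDC2 gate and 0.20 in the cDC1 gate. Over 1594 genes tested in all 3 groups they were -0.01, -0.02 and -0.02. No gene of the list passed edgeR's test within the cDC2 or cDC1 gate.

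To test the difference in response itself, edgeR was fitted to members and gate together, with a term for each library. Of 3866 genes, 3 (0.0776%) responded more positively in members than in the cDC2 gate and 3 (0.0776%) more negatively. Irf7 was at 108, 213, 349 and 314 CPM in members and at 332, 685, 184 and 89.5 CPM in the cDC2 gate. These values were lower in Adar1-null libraries in members and higher in the cDC2 gate, in 2 of 2 libraries each. Neither change passed edgeR's test alone. The difference between them was -2.89 (SE 0.40, adjusted p = 2.48e-04 by edgeR). Ms4a6c and Cxcl2 had differences of -2.37 (SE 0.48, adjusted p = 0.0274) and -3.56 (SE 0.68, adjusted p = 0.0469). Isg15, a ubiquitin-like interferon target, was at 296, 596, 634 and 304 CPM in members and 414, 1007, 309 and 220.0 CPM in the cDC2 gate, a difference of -1.39 that did not pass (adjusted p = 0.118 by edgeR). The 3 genes on the positive side, Igfbp7, Serpinh1 and Serping1, had 172, 27 and 19 UMIs in the endothelial-marker cell of S2 and were not called without both cells. In that fit Irf7, Ms4a6c and Cxcl2 were still called, together with Mt2 on the positive side and Ccl4, Plac8, Mndal and Cd14 on the negative side. The calls also rested on single libraries: without S1 Igfbp7 alone passed and without S2 none of 4608 genes did, with 157 at an unadjusted p under 0.05. Leaving out S3 or S4 gave 28 and 40 calls. Against the cDC1 gate 6 of 3334 genes (0.18%) responded more positively in members and 6 (0.18%) more negatively, and Irf7, with a difference of -1.15 (SE 0.43, adjusted p = 0.44), was not among them.

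**Figure D5:**
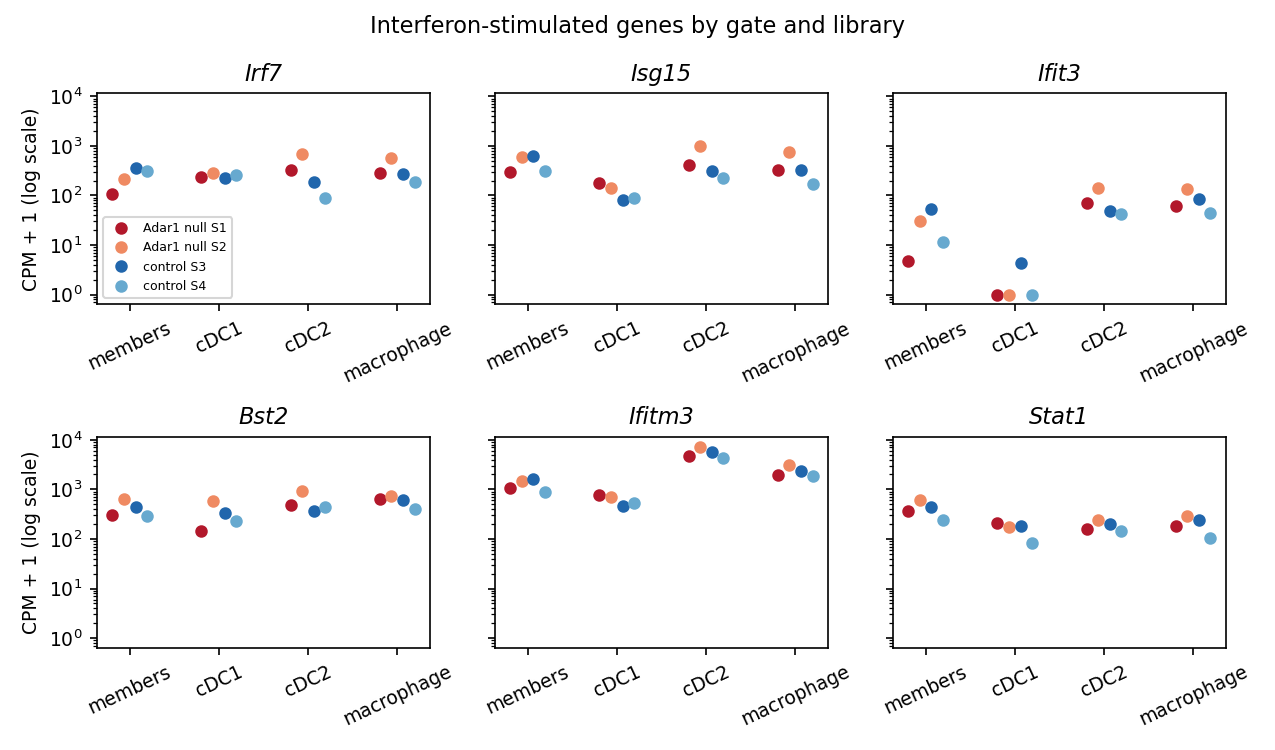
CPM plus 1 (log axis) of 6 interferon-stimulated genes in members and 3 gates, 1 point per library. In the cDC2 gate both Adar1-null libraries lie above both controls for Irf7, Isg15, Ifit3 and Bst2, as they do for 729 of all 3305 genes tested there. In members Irf7 is lower in both Adar1-null libraries and the others overlap.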

How the data were processed

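The authors deposited raw UMI counts, whole numbers, as 1 table that joins the 4 libraries. Seurat 2.2.0, Cell Ranger and mm10 are named, per the submitters' processing notes. The version of Cell Ranger and the annotation were not given in the sources used here. Libraries were read from the names on the barcodes. Kept were 8677 of 8838 barcodes, those with 500 or more genes and no more than 10% of UMIs from mitochondrial genes. The members and the gene lists were chosen with earlier results of these data known. Cells were placed in gates by raw UMIs. UMIs of the members were summed per library, since cells are not replicates, and tested with edgeR 4.0.16 in R 4.3.3 (TMM, default filter on low counts, robust quasi-likelihood fit, Benjamini-Hochberg adjustment at 0.05). DESeq2 1.42.0 was an alternative. On simulated counts the edgeR fit recovered 93.7% of 4-fold changes among 1911 genes. Every simulated gene had the same dispersion, and only genes that passed the filter in the real counts were changed. The spread that single cells add to some genes was not simulated, so this share is not the power in the members. CPM divides a gene's UMIs by the sum over the cells named in that library. Doublets were scored with Scrublet in scanpy 1.11.5 (score of 0.1 or more) and left in. Shares of cells with a UMI, and cell-to-cell spread, were read after thinning to 3900 UMIs per cell. Free RNA was not corrected. Symbols with several gene IDs (56) were read at the ID with most UMIs. Named genes came from a rule: the 6 markers and Adar; genes past the threshold and, where fewer than 10 passed, the 8 in each direction with the smallest p and groups that do not overlap; the most abundant members of each list and the 1 with the smallest p; the 20 leading and 10 lowest genes against other gates; and chief markers of other cell types. Other genes, among them Irf7 and those called only under an alternative or in the interactions, were named after their values were seen.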

Additional observations from a re-analysis of the deposited data

Results flagged for a closer look

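These results stood out because the response to Adar1 loss differed between the members and another dendritic gate in the edgeR interaction test (log2 response in members less that in the gate). Against the cDC2 gate the differences were -2.89 for Irf7, -2.37 for Ms4a6c and -3.56 for Cxcl2, and 11.43 for Igfbp7, 10.98 for Serping1 and 9.55 for Serpinh1. The last 3 come from the 1 endothelial-marker cell in S2, which held 172 Igfbp7, 19 Serping1 and 27 Serpinh1 UMIs.

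Against the cDC1 gate 12 of 3334 genes passed. Differences were positive for 2810417H13Rik (3.95), Hmgn2 (3.55), Ccr7 (3.26), Stmn1 (2.52), Rgs1 (1.63) and Lgals3 (1.20). They were negative for Klrb1b (-3.29), Ms4a6c (-2.45), Plbd1 (-2.43), Mndal (-2.21), Plac8 (-2.14) and S100a10 (-1.67). The Ccr7 value reads a gene that chose the members, and cells of the cDC1 gate that passed the rule had been taken out of it.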

How the results depend on the processing

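No paired analysis was possible because the barcode names carry no replicate numbers. The 1 call in members became 2 with RLE size factors and without Scrublet-marked cells, 11 with no filter on low counts, 4 with Fscn1 at least 1, 0 with no robust fit, 13 without the endothelial-marker cell, 0 without the Cd209a cell and 5 without both; leaving out each library gave 11 to 38. The 1 call was Ccl9 with Fscn1 at least 3 and Apoe with equal cell numbers, in place of Ccl17. Without the Cd209a cell 104 genes, and with no robust fit 113, had an unadjusted p under 0.05. The 6 interaction calls became 12 against the cDC1 gate, and 0 to 40 when each library was left out. The log2 change in cell number stayed positive and unpassed under every setting (0.32 to 1.47 leaving out libraries). Genes lower than both gates numbered 84 at a minimum of 100 CPM, and 168 to 204 leaving out libraries; genes higher numbered 221 to 260.

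Among 44 single values recomputed 591 times, 497 kept their sign and their side of the adjusted threshold, whatever their size. Of the rest 45 newly passed, 22 no longer passed and 27 changed sign, and none of those that changed sign had passed. The 497 include values whose size moved, such as the log2 change of H2-Ab1, from -0.81 to -0.046 without S3. Of 240 recomputed list medians 43 moved by more than the spread between libraries, and the interferon list's ran from -0.84 to 0.43. Leaving out each library, log2 changes ran from -0.062 to 0.33 for Fscn1, -1.27 to 0.69 for Ccl22, -0.93 to 0.10 for Il4i1, -0.24 to 0.18 for Relb, -0.34 to 0.051 for Cacnb3, -0.40 to 0.035 for Ccl5, -0.30 to 0.42 for Cd274, -0.345 to 0.79 for Pdcd1lg2, -0.78 to 0.66 for Il15ra, -0.69 to 0.43 for Isg15 and -0.29 to 0.32 for Cd80. With equal cell numbers the changes were -0.032 for Fscn1, 0.051 for Relb and 0.024 for Cacnb3. Relb was at 0.0058 without the endothelial-marker cell, and Isg15 at 0.10 without the Cd209a cell and 0.058 without both. Cd274 was at -0.11 with Fscn1 at least 1; Pdcd1lg2 and Cd80 were at -0.049 and -0.028 with Fscn1 at least 3 and at -0.018 and -0.014 without Scrublet-marked cells.

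With 2 libraries a group, 15 to 40 members per library limit the precision for low genes. The cause of these changes was not tested.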
